A study of Homo sapiens with 96 samples.

Results

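The genes described here encode the ligands and receptors that steer growing axons: semaphorins with their plexin and neuropilin receptors, netrins with DCC and the UNC5 receptors, SLIT ligands with ROBO receptors, and ephrins with Eph receptors. They were chosen by symbol and not by their values, though earlier results of these data were known. Of 72 symbols in the deposited table that matched these family names, 71 belonged to protein-coding genes, out of 19879 protein-coding genes and 58434 genes in all. The symbol left out was PLXNB3-AS1, which is not protein-coding. The 11 families held 20 semaphorins, 9 plexins, 2 neuropilins, 6 netrins, 5 DCC and UNC5 receptors, 3 SLIT ligands, 4 ROBO receptors, 5 ephrins-A, 9 EphA receptors, 3 ephrins-B and 5 EphB receptors.

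The study asked how developmental neurotoxicants change the neuronal differentiation of neural progenitor cells (NPC) derived from H9, a human embryonic stem cell line in wide use. There were 10 exposed groups of 8 libraries: methyl mercury, fluoxetine, chlorpyrifos, valproic acid or acrylamide was given, each at IC5 (5% inhibition) or at IC20/100 (the 20% concentration diluted 100-fold, the lower of the pair). They were sampled at day 10 of neuron and astrocyte co-culture, beside 8 unexposed control co-cultures of the same day and 8 libraries of NPC at day 0. The vehicle was dimethyl sulfoxide (DMSO) for chlorpyrifos, fluoxetine and methyl mercury, and medium for the other compounds. Molar concentrations, the length of exposure and any DMSO in the controls were not given in the sources used here, so for these 3 compounds vehicle and compound cannot be told apart against control. The 8 libraries of a group were technical replicates of 1 experiment, and the p-values measure only the spread between such replicates.

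A growth cone reads guidance cues through pairs of ligand and receptor. Secreted semaphorins usually repel axons through neuropilins and plexins, netrin-1 attracts through DCC and repels where UNC5 receptors take part, SLIT proteins repel through ROBO receptors, and ephrins signal on contact in both directions with Eph receptors. In the developing nervous system these families also shape cell migration, tissue boundaries and, later, synapses.

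Promoters of 3 genes are shown, chosen among those with the largest differences between co-cultures and NPC: 2 receptors that rose and a ligand that fell. They are RefSeq windows of 300 bases on GRCh38.p14, 250 before and 50 after the start, given 5′ to 3′ on the gene's own strand. EPHA8 (an EphA receptor) lies at chr1:22563239-22563538 on the plus strand, UNC5A (a netrin receptor) at chr5:176810309-176810608 on the plus strand, and EFNB2 (ephrin-B2) at chr13:106535613-106535912 on the minus strand. Capitals mark 3 motifs, searched on both strands: the core of the GC box is spelled GGGCGG, the E-box is spelled CACGTG, and the TATA box is spelled TATAAA. A match on the other strand is printed as its reverse complement.
EPHA8: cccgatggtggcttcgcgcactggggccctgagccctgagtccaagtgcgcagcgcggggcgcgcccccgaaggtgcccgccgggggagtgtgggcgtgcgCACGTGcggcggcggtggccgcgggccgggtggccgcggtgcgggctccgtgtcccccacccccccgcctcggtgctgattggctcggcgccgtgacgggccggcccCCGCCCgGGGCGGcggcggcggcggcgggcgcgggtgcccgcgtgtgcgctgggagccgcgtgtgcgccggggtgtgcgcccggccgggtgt
UNC5A: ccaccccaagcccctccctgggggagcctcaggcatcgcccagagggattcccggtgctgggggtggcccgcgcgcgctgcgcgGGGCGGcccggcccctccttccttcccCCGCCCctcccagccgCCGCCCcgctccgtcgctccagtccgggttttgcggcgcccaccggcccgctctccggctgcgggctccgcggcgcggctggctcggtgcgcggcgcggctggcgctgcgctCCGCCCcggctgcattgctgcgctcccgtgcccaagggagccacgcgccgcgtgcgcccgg
EFNB2: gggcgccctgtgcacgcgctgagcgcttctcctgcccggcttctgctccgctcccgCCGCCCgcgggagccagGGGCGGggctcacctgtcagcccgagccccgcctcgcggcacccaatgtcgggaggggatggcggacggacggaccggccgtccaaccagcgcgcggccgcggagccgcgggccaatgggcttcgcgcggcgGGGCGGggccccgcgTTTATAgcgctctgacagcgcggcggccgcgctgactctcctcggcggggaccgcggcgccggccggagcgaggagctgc
All 3 windows held GGGCGG, EPHA8 alone of the 3 held CACGTG, and EFNB2 alone held TATAAA, read from the opposite strand. Of the 71 genes, 60 had a promoter in the reference. GGGCGG was present in 45 of these 60 (75.0%), against 44.585% of all 27305 promoters of the same length, and the median number of CpG was 21 against 14. CACGTG was in 4 of the 60 (EPHA8, SEMA3E, SEMA4D and SEMA6D; 6.667% against 7.435%), and TATAAA in EFNB2 alone (1.667% against 11.954%). A match says only that the letters are present.

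The table holds gene counts divided by 1 size factor per library, called normalized counts here, and recovered reads ranged from 9487158 to 29626655 per library. Methyl mercury IC20/100 replicate 8 stood apart: its normalized counts summed to 20952110, against 18108478 to 18986791 in the other day 10 libraries. The 8 neuron markers summed to between 86406 and 93445 normalized counts in control co-cultures and between 65042 and 71574 in NPC, so both held neuronal RNA. Of 8 astrocyte markers, 7 averaged at least 10 in controls, but the defining ones were low there: GFAP ranged from 8.37 to 48.6, S100B from 14.1 to 24.0 and AQP4 from 0 to 19.5. In NPC GFAP ranged from 2.12 to 34.6, S100B from 58.8 to 87.0 and AQP4 from 10.4 to 32.5, so S100B and AQP4 were higher on average in NPC. The 8 astrocyte markers summed to between 14052 and 16658 in controls and between 7207 and 9102 in NPC. Dividing-cell markers (5 of 5 measured) summed to between 9408 and 12717 in controls and between 24530 and 29107 in NPC, and mesenchymal markers (6 of 6) to between 1309 and 1721 in controls and between 3091 and 4276 in NPC. Endothelial markers (3) summed to between 13.1 and 37.9 in controls, where none averaged 10, and between 137 and 387 in NPC, where all 3 did. Of the oligodendrocyte markers, OLIG2 averaged 33.8 in controls and 100.3 in NPC, MBP averaged 26.0 in both, and MOG averaged 5.01 in controls and 5.13 in NPC. Progenitor markers (7 of 7) summed to between 94654 and 102019 in controls and between 99100 and 105007 in NPC. These sums hide opposed changes of single markers. VIM, the largest part, averaged 72146 in controls and 46952 in NPC. SOX2 (3641 against 2890), PAX6 (915 against 219) and HES5 (1662 against 481) also averaged higher in controls. NES (15559 against 28992), FABP7 (3328 against 19194) and SOX1 (1921 against 3575) averaged lower. Microglia markers (3) summed to at most 9.86 in controls and 18.0 in NPC. The part of such cells in the differences below was not tested, and in bulk RNA fewer cells of a type and less RNA per cell cannot be told apart.

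Between control co-cultures and NPC, most guidance genes differed, and most families held members that were higher and members that were lower. The 4 receptors with the largest rises in co-cultures were UNC5A, EPHA8, EPHA5 and EPHA4, and the ligand SLIT3 also rose. The largest falls were of the ligand EFNB2 and the receptors UNC5C and EPHA3, and both neuropilins were lower. A gene was called at a limma p under 0.05 after Benjamini-Hochberg adjustment over all genes tested. Of 68 members that passed the filter on low values, 32 were higher and 24 lower in co-cultures (82.4%), against a background of 70.7% of 18063 genes, of which 33.9% were higher and 36.8% lower. The same background applies to the counts by family below, each of which rests on few genes. The median log2 fold change was 0.20 over the tested members and -0.01 over all genes. In 24 members every control library lay above every NPC library and in 17 every one lay below, against backgrounds of 18.6% and 22.3%. UNC5A, among the 24, passed the low-value filter through the controls alone, so its separation from NPC was fixed in advance. SEMA3G (0 to 5.34 in controls, 9.34 to 40.7 in NPC), EPHA1 (0 to 7.96 in controls, 0 to 3.58 in NPC) and ROBO4 (0 to 1.87 in controls, 0 to 14.5 in NPC) did not pass it and were not tested.

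**Figure D1:**
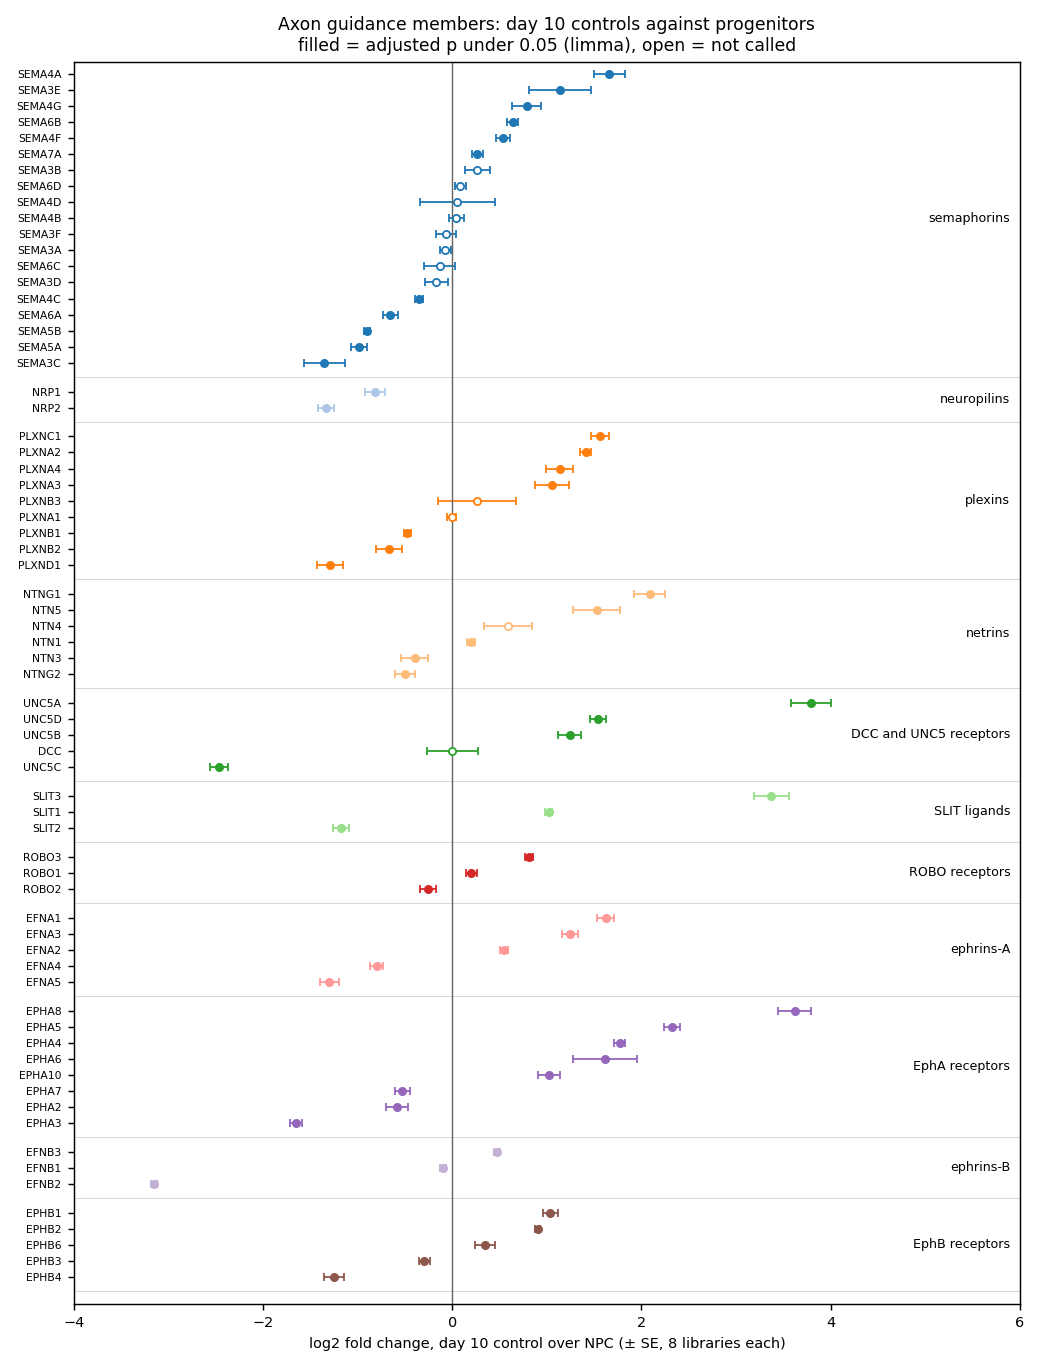
Log2 fold change of control co-cultures over NPC (points, with SE as bars) for the 68 members tested, ordered by family, with filled points for an adjusted p under 0.05. UNC5A, EPHA8 and SLIT3 lie above 3 on the log2 scale and EFNB2 lies below -3, while DCC lies at 0.

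Of the 19 semaphorins tested, 6 were higher in co-cultures, 5 lower and 8 not called. SEMA4A, a transmembrane semaphorin, had 269.7, 345 and 426 normalized counts (lowest, median and highest of 8 libraries) in controls, against 59.3, 109 and 171 in NPC, and the groups did not overlap (log2 fold change 1.66 ± 0.17 SE, adjusted p = 2.29e-06). SEMA5B had 4430.1, 4553 and 4788 in controls and 8011, 8446 and 9174 in NPC, lower in every control library (-0.90 ± 0.03, adjusted p = 2.42e-10). SEMA3C, a secreted ligand, had 57.0, 100.2 and 176 in controls and 170.2, 242 and 368 in NPC, with a slight overlap (-1.35, adjusted p = 1.38e-04). The secreted SEMA3A, a classic repellent, was not called (-0.07, adjusted p = 0.274; 492 to 650.0 in controls and 442 to 729 in NPC).

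The receptors of the semaphorins moved in both directions. NRP2, co-receptor for several secreted semaphorins, had 1020.2, 1225 and 1458 normalized counts in controls and 2536, 2994 and 4002 in NPC (log2 fold change -1.33 ± 0.09, adjusted p = 4.90e-08). NRP1 fell by 0.82 on the log2 scale. The groups did not overlap for either. Of 9 plexins, 4 were higher and 3 lower: PLXNA2, with the highest level per kilobase of exon of all members in controls (954 ± 73.8 SD normalized counts per kilobase), had 11587, 13146 and 14478 in controls and 3685, 4964 and 5549 in NPC (1.41 ± 0.06, adjusted p = 1.16e-09). PLXNC1, receptor of SEMA7A, rose by 1.56 without overlap. PLXND1, receptor of SEMA3E, had 207, 319 and 431 in controls and 549.8, 721 and 938 in NPC (-1.30), while SEMA3E itself was higher in controls (1.14, adjusted p = 0.00807) with groups that overlapped. PLXNA4 (1.14) and PLXNA3 (1.05) were higher as well, and PLXNA1 was not called (-0.01 ± 0.04).

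The netrin receptors moved in opposite directions. UNC5A had 53.7, 66.8 and 85.7 normalized counts in controls and 0.768, 2.89 and 7.31 in NPC (log2 fold change 3.80 ± 0.21, adjusted p = 1.31e-08). UNC5C had 68.4, 83.7 and 103 in controls and 387, 474 and 557 in NPC (-2.47 ± 0.09, adjusted p = 4.49e-10). UNC5B (447, 635 and 887 in controls, 220.1, 244 and 283 in NPC; 1.24) and UNC5D (169, 230.0 and 248 in controls, 64.7, 74.5 and 96.4 in NPC; 1.54) were higher. Control and NPC libraries did not overlap for UNC5B, UNC5C or UNC5D. For UNC5A the separation was fixed by the low-value filter, passed through the controls alone, so its p-value adds no support. Per kilobase of exon, UNC5B made up 66.8% of the summed UNC5 level in controls and 40.8% in NPC, and UNC5C 5.88% in controls and 50.3% in NPC. DCC, the receptor for attraction, was not called (-0.00 ± 0.27): it ranged from 3879 to 10626 in controls and from 3773 to 14815 in NPC.

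Among the netrins, 3 were higher, 2 lower and 1 not called. NTNG1 (netrin-G1, a membrane-anchored relative) had 201, 281 and 343 in controls and 47.7, 57.2 and 101 in NPC (log2 fold change 2.08, adjusted p = 2.15e-07), with no overlap. NTN5 rose by 1.53 from a low level (20.6 to 55.3 in controls, 6.75 to 19.7 in NPC). NTN1, the classic netrin, was higher by 0.19 (adjusted p = 0.00117), with 1683 to 2008 in controls and 1535 to 1733 in NPC.

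All 3 SLIT ligands were called. SLIT3 had 284, 305 and 384 normalized counts in controls and 21.2, 25.9 and 76.7 in NPC (log2 fold change 3.37 ± 0.19, adjusted p = 1.04e-08), and SLIT1 had 3081, 3337 and 3499 in controls and 1528, 1623 and 1712 in NPC (1.02 ± 0.04). SLIT2 went the other way, with 345, 365 and 408 in controls and 749, 781 and 1184 in NPC (-1.18 ± 0.08, adjusted p = 9.27e-08). No control library overlapped with NPC for any of them. Among the ROBO receptors, ROBO3 was higher without overlap (0.81; 4588 to 5283 in controls, 2563 to 3027 in NPC), and ROBO1 differed by 0.20 with overlapping groups. ROBO2 fell by 0.26, a call lost without the term for sequencing run (adjusted p = 0.102), with the replicate block (adjusted p = 0.116), and without control replicate 4 or 5 or NPC replicate 4 or 6 (adjusted p from 0.0551 to 0.0873).

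EFNB2 was the most reduced member. It had 762, 779 and 842 normalized counts in controls and 6912, 7057 and 7415 in NPC (log2 fold change -3.16 ± 0.03, adjusted p = 2.55e-14), and 26.16% of its exon bases lie opposite a gene on the other strand. Its share of the ephrin-B level per kilobase was 11.5% in controls and 55.9% in NPC. The other ephrins-B changed little in comparison (EFNB1 -0.10, a call lost with TMM scaling at an adjusted p of 0.0578 and with the replicate block at 0.0595, and EFNB3 0.47). Of the ephrins-A, EFNA1 (1.62) and EFNA3 (1.25) were higher and EFNA5 (-1.30) and EFNA4 (-0.80) lower, all without overlap. EFNA3 and EFNA4 share 44.68% and 14.96% of their exon bases with AL691442.1 on the same strand, so their counts are uncertain.

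All 8 EphA receptors tested were called, 5 of them higher. EPHA8 had 133, 159.5 and 194 normalized counts in controls and 7.27, 10.3 and 17.9 in NPC (log2 fold change 3.62 ± 0.17, adjusted p = 3.05e-09). EPHA5 had 699, 748 and 847 in controls and 129, 149.5 and 178 in NPC (2.32 ± 0.08), and EPHA4 had 3105, 3583 and 3912 in controls and 829, 1043 and 1264 in NPC (1.77 ± 0.06). These receptors of ephrins-A lay above NPC in every control library. EPHA6 (1.61) and EPHA10 (1.02) were also higher. EPHA6 was low and its groups overlapped (14.9 to 53.4 in controls, 3.07 to 28.7 in NPC). EPHA3 fell by 1.65, with 302, 386 and 406 in controls and 1133, 1181 and 1247 in NPC. Among the EphB receptors, EPHB1 (1.04) and EPHB2 (0.90) were higher and EPHB4, a receptor of ephrin-B2, was lower (-1.25, 283 to 517 in controls, 846 to 1033 in NPC).

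In the exposed co-cultures, the receptors UNC5B, EPHA8 and EPHA2 had the largest falls below control, and chlorpyrifos IC5 lowered UNC5B most (log2 fold change -1.85). Acrylamide IC5 changed the most members, in both directions, and valproic acid IC5 raised all 3 SLIT ligands and the netrin relative NTNG2. Under chlorpyrifos, fluoxetine and methyl mercury most members called were lower than control. All 10 comparisons share the same 8 controls and are given side by side.

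Of 69 members tested, acrylamide IC5 had 17 higher and 23 lower (58.0%), against 42% of 20136 genes (20.5% higher, 21.5% lower). Acrylamide IC20/100 had 0 called by limma, by edgeR or by DESeq2, with 5 at an unadjusted p under 0.05, against 0.0596% of genes (0.0497% higher, 0.00993% lower). Chlorpyrifos had 8 higher and 18 lower at IC5 (background 19.7%; 9.92% higher, 9.75% lower), and 5 higher and 16 lower at IC20/100 (background 14.1%; 7.06% higher, 7.02% lower). Fluoxetine had 4 higher and 20 lower at IC5 (background 11.4%; 5.47% higher, 5.94% lower), and 2 higher and 19 lower at IC20/100 (background 14.4%; 6.88% higher, 7.54% lower). Methyl mercury had 3 higher and 24 lower at IC5 (background 10.9%; 4.85% higher, 6.06% lower), and 4 higher and 23 lower at IC20/100 (background 15.8%; 8.21% higher, 7.6% lower). Valproic acid had 11 higher and 11 lower at IC5 (background 26.9%; 14.5% higher, 12.4% lower), and 1 higher and 3 lower at IC20/100 (background 2.54%; 1.17% higher, 1.37% lower).

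By direction, methyl mercury IC5 lowered 24 of 69 members, against 6.06% of all genes, and raised 3, against 4.85%. Its median log2 fold change was -0.21 over the members and 0.01 over all genes. Fluoxetine IC5 lowered 20, against 5.94% of genes, with medians of -0.12 and 0.00, and chlorpyrifos IC5 lowered 18, against 9.75%, with medians of -0.09 and -0.00. For acrylamide IC5 the medians were -0.03 over members and -0.01 over genes, and for valproic acid IC5 they were 0.04 and 0.00. When methyl mercury IC20/100 was fitted with only its own and the control libraries, 8 members were called in place of 27, and without its replicate 8 there were 24.

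By family at IC5, the 8 EphA receptors tested had 0 higher and 3 lower with acrylamide, 0 and 3 with chlorpyrifos, 1 and 4 with fluoxetine, 0 and 4 with methyl mercury, and 1 and 2 with valproic acid. The shares over all genes given above for each compound at IC5 are the background of every count by family here. The 20 semaphorins had 5 higher and 5 lower with acrylamide, 3 and 4 with chlorpyrifos, 1 and 3 with fluoxetine, 1 and 4 with methyl mercury, and 3 and 4 with valproic acid. Plexins were called higher with acrylamide (3 of 9, with 3 lower), while the other compounds at IC5 had 0 higher and 2 lower each. The 6 netrins had 3 higher and 2 lower with acrylamide, 2 and 1 with chlorpyrifos, 0 and 2 with fluoxetine, 1 and 2 with methyl mercury, and 3 and 0 with valproic acid. EPHA1 and ROBO4 did not pass the low-value filter at day 10 and were not tested.

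**Figure D2:**
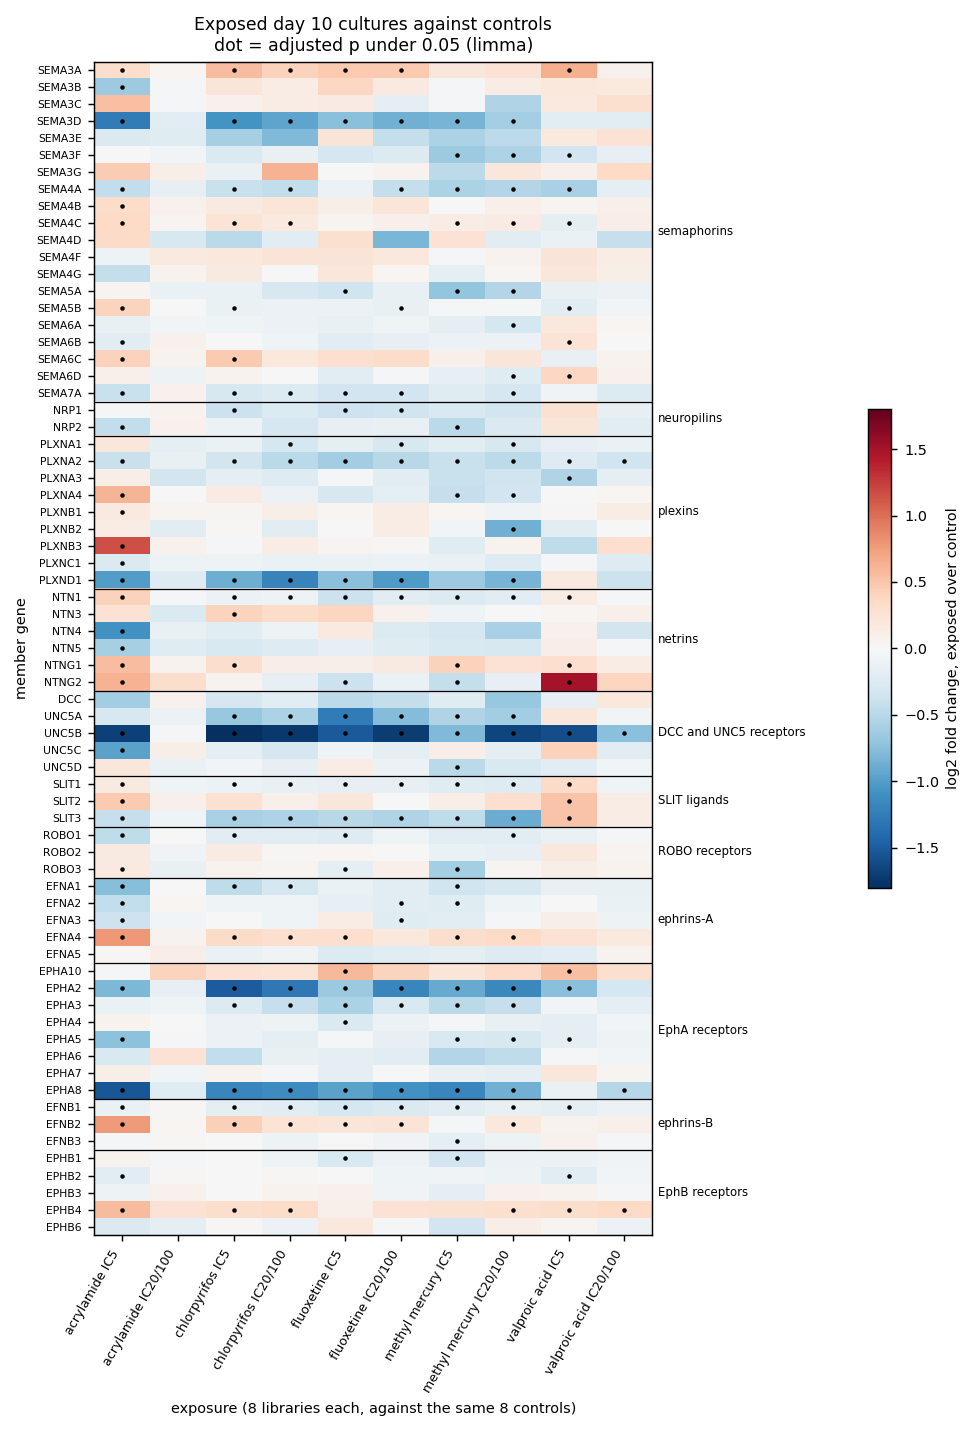
Log2 fold change of each exposed group over control (colour) for the 69 members tested, by family down the page and exposure across, with a dot where the adjusted p is under 0.05. UNC5B reaches -1.85 in chlorpyrifos IC5, acrylamide IC20/100 has 0 dots, and NTNG2 is strongest in valproic acid IC5 (1.49).

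Several markers moved with the exposures too. The summed level of the 8 astrocyte markers ranged from 8460 to 9223 in acrylamide IC5, against 14052 to 16658 in controls, and 3246 to 3805 of it was FGFBP3, against 8911 to 11180 in controls. It ranged from 9765 to 12445 in chlorpyrifos IC5, from 10032 to 14372 in methyl mercury IC5, from 9844 to 11448 in valproic acid IC5 and from 13935 to 15983 in fluoxetine IC5. At IC20/100 it ranged from 10329 to 12099 in fluoxetine, from 10273 to 12144 in chlorpyrifos and from 11143 to 14436 in methyl mercury. It ranged from 11247 to 14767 in valproic acid IC20/100 and from 13788 to 14562 in acrylamide IC20/100. The dividing-cell markers ranged from 15795 to 18485 in acrylamide IC5 and from 12997 to 16878 in valproic acid IC5, against 9408 to 12717 in controls. They ranged from 12710 to 14830 in chlorpyrifos IC5, from 11654 to 17002 in methyl mercury IC5 and from 9600 to 11758 in fluoxetine IC5. The neuron markers ranged from 76645 to 85581 in methyl mercury IC5 and from 82053 to 86759 in acrylamide IC5, against 86406 to 93445 in controls. They ranged from 83943 to 90663 in fluoxetine IC5, from 89634 to 96932 in chlorpyrifos IC5 and from 90092 to 97203 in valproic acid IC5. The progenitor markers ranged from 72985 to 80776 in acrylamide IC5, from 79229 to 85903 in chlorpyrifos IC5, from 93613 to 102757 in fluoxetine IC5, from 87221 to 94560 in methyl mercury IC5 and from 93064 to 102212 in valproic acid IC5, against 94654 to 102019 in controls. In controls most of this sum was VIM (mean 72146), so it says little of the other progenitor markers. At IC20/100 neuron markers ranged from 73457 to 89153 in methyl mercury, from 85111 to 91562 in chlorpyrifos and from 86238 to 91498 in fluoxetine. The progenitor markers ranged there from 84309 to 143920, from 84015 to 92407 and from 79986 to 88474, in the same order. In valproic acid and acrylamide IC20/100, neuron markers ranged from 85906 to 93281 and from 87264 to 91135. Progenitor markers ranged from 92042 to 99378 and from 96938 to 105158 there. The part of these markers in the changes of the guidance genes was not tested.

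UNC5B is a repulsive netrin receptor. Its lowest, median and highest normalized counts were 181, 189 and 201 in acrylamide IC5, 149.8, 164 and 214 in chlorpyrifos IC5, 163, 214 and 232 in fluoxetine IC5, 246, 363 and 450.1 in methyl mercury IC5, and 167, 208 and 231 in valproic acid IC5, against 447, 635 and 887 in controls. All but methyl mercury IC5 lay below every control, whose highest library lay above the lowest control. At IC20/100 the medians were 549 with acrylamide, 183 with chlorpyrifos, 182 with fluoxetine, 183 with methyl mercury and 417 with valproic acid, against 635 in controls. The log2 fold changes over control at IC5 were -1.68 with acrylamide, -1.85 with chlorpyrifos, -1.52 with fluoxetine, -0.80 with methyl mercury and -1.60 with valproic acid (SE 0.12, adjusted p from 1.83e-21 to 9.82e-07). At IC20/100 they were -0.03 with acrylamide (adjusted p = 0.987), -1.74 with chlorpyrifos, -1.70 with fluoxetine, -1.66 with methyl mercury and -0.76 with valproic acid. With only the valproic acid IC20/100 and control libraries in the fit, that last value was not called (-0.73, adjusted p = 0.0849). Per kilobase, UNC5B made up 40.6% of the summed UNC5 level in acrylamide IC5, 40.3% in chlorpyrifos IC5 and 38.9% in valproic acid IC5, against 66.8% in controls.

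The other UNC5 receptors differed by compound. UNC5A had 15.0, 31.0 and 34.6 normalized counts in fluoxetine IC5, against 53.7, 66.8 and 85.7 in controls, below every control library (log2 fold change -1.26 ± 0.13, adjusted p = 9.44e-13). It was lower by 0.68 in chlorpyrifos IC5 and by 0.55 in methyl mercury IC5, with groups that overlapped, and it was not called in acrylamide IC5 (-0.29, adjusted p = 0.0637) or valproic acid IC5 (0.20, adjusted p = 0.26). UNC5C had 27.3, 40.6 and 62.3 in acrylamide IC5, against 68.4, 83.7 and 103 in controls, with no overlap (log2 fold change -0.96 ± 0.17, adjusted p = 3.54e-06), and was called in no other exposure. UNC5D was lower in methyl mercury IC5, with 146, 155 and 179 against 169, 230.0 and 248 in controls (-0.48, adjusted p = 7.75e-04). DCC was called in none of the 10, with an SD of log2 values within groups of 0.54.

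**Figure D3:**
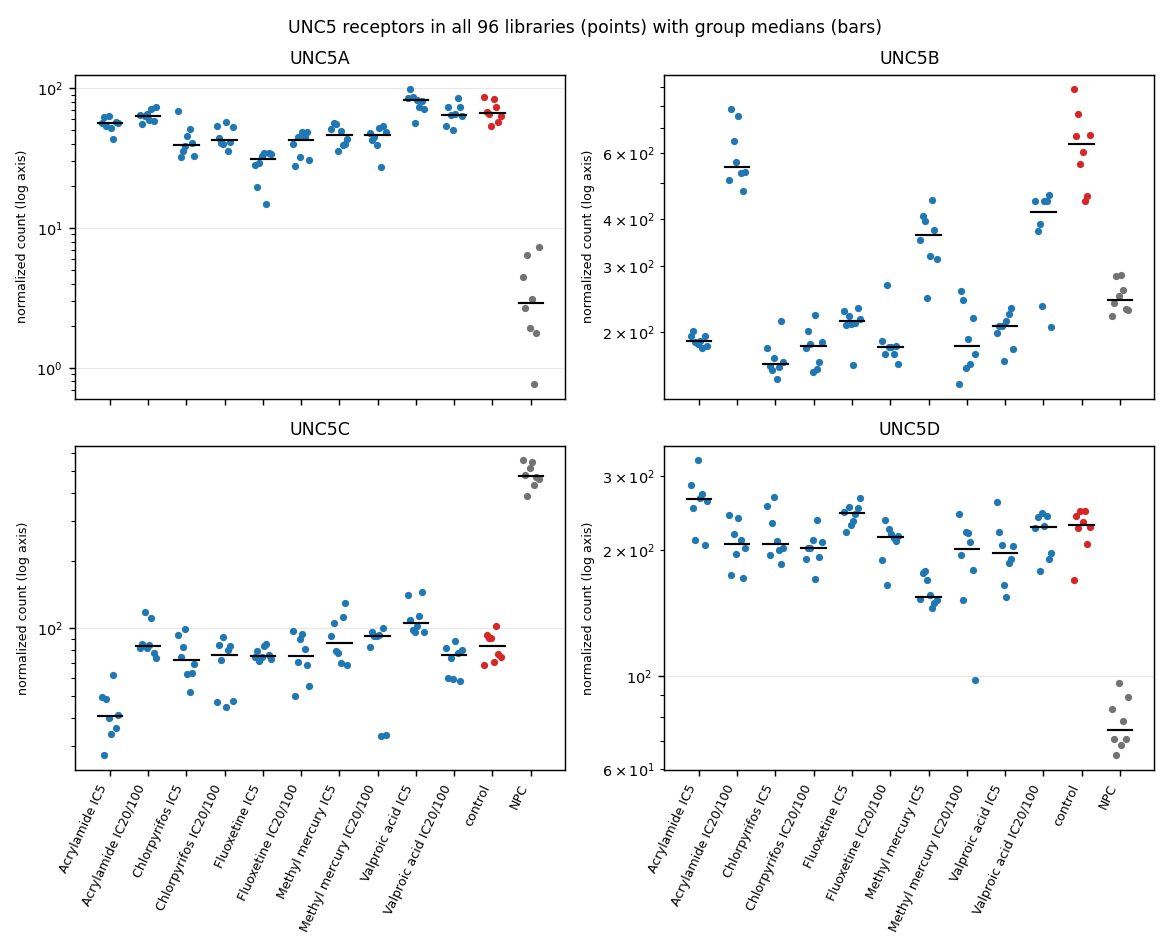
Normalized counts (log axis) of the 4 UNC5 receptors in all 96 libraries (points) with group medians (bars). The median of UNC5B in fluoxetine IC5 is 214, against 635 in controls, UNC5A is lowest of the day 10 groups in fluoxetine IC5, and UNC5C is lowest in acrylamide IC5 and highest in NPC.

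Among the netrin ligands NTNG2 and NTN1 changed most clearly. NTNG2 (netrin-G2) had 349.8, 397 and 480.3 normalized counts in valproic acid IC5, against 111, 136 and 217 in controls, and every exposed library lay above the controls (log2 fold change 1.49 ± 0.13, adjusted p = 4.26e-15). It rose by 0.62 in acrylamide IC5 (185, 216 and 249, with overlap; adjusted p = 1.06e-04). NTN1 had 2357, 2431 and 2588 in acrylamide IC5 and 1339, 1393 and 1509 in fluoxetine IC5, against 1683, 1846 and 2008 in controls. These groups lay on opposite sides of the controls without overlap (0.41 ± 0.03, adjusted p = 3.17e-18 with acrylamide, and -0.39 ± 0.03, adjusted p = 3.37e-16 with fluoxetine). NTN1 was also lower in methyl mercury IC5 (-0.24) and higher in valproic acid IC5 (0.13). NTNG1 had 373, 401 and 439 in acrylamide IC5, against 201, 281 and 343 in controls (0.56, adjusted p = 4.51e-06). NTN4 fell by 1.09 in acrylamide IC5 (82.2, 178 and 436, against 115, 429 and 945 in controls; adjusted p = 0.0142), and was not called without control replicate 4 (-0.90, adjusted p = 0.057).

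The SLIT ligands rose together in 1 exposure, valproic acid IC5. There SLIT1 had 3777, 4208 and 4433 normalized counts, against 3081, 3337 and 3499 in controls (log2 fold change 0.34 ± 0.04, adjusted p = 4.49e-11). SLIT2 had 441, 493 and 711, against 345, 365 and 408 in controls (0.51, adjusted p = 0.00313), and neither overlapped with its controls. SLIT3 had 318, 448 and 630.4, against 284, 305 and 384 in controls (0.51, adjusted p = 9.25e-04), with overlap. SLIT3 was lower in chlorpyrifos IC5 (179, 213 and 259.7; -0.59), fluoxetine IC5 (193, 231 and 259; -0.50) and methyl mercury IC5 (139, 252 and 277; -0.46), each below every control library. The lowest SLIT3 was in methyl mercury IC20/100, with 109.6, 180.3 and 216 (-0.90 ± 0.13, adjusted p = 7.36e-08), and SLIT1 had 2321, 2799.8 and 2987 there (-0.24, adjusted p = 4.24e-06), a call lost with only these groups in the fit (adjusted p = 0.0904). Both lay below every control library. In acrylamide IC5, SLIT1 (0.16) and SLIT2 (0.47) were higher and SLIT3 lower (-0.41, adjusted p = 0.0053).

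Of the ROBO receptors, ROBO3 fell in methyl mercury IC5. It had 2814, 3187 and 3541 normalized counts there, against 4588, 4695 and 5283 in controls (log2 fold change -0.61 ± 0.05, adjusted p = 4.91e-15), with no overlap, and 4284, 4915 and 6864 in methyl mercury IC20/100, which was not called (0.05). ROBO1 had 3938, 5056 and 5600.2 in acrylamide IC5, against 5986, 6576 and 7282 in controls (-0.46 ± 0.07, adjusted p = 7.67e-08), and these groups did not overlap either. ROBO2 was called in none of the 10.

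**Figure D4:**
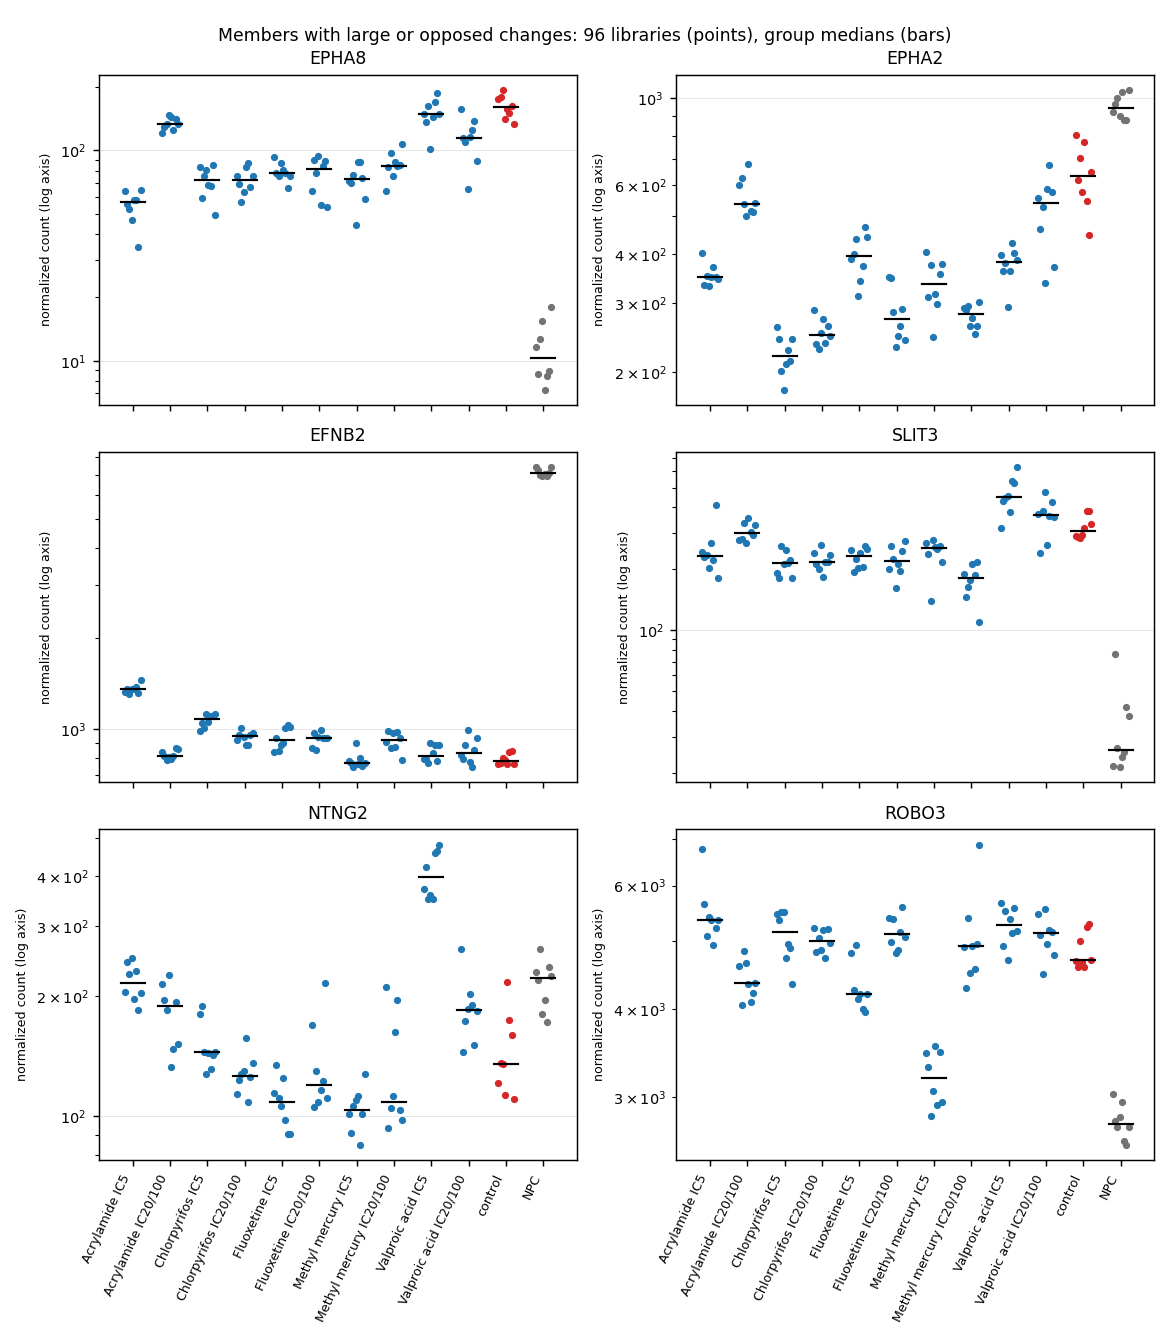
Normalized counts (log axis) of EPHA8, EPHA2, EFNB2, SLIT3, NTNG2 and ROBO3 in all 96 libraries (points) with group medians (bars). NTNG2 is highest in valproic acid IC5 (349.8 to 480.3), ROBO3 is lowest of the day 10 groups in methyl mercury IC5 (2814 to 3541), and EFNB2 in NPC lies above every day 10 library.

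The semaphorins had members called in both directions. SEMA3A, a secreted repellent, was higher in chlorpyrifos IC5 (652, 830.3 and 999 normalized counts), fluoxetine IC5 (692, 753 and 827) and valproic acid IC5 (736, 875 and 978) than in controls (492, 528 and 650.0), with no overlap. The log2 fold changes were 0.56, 0.47 and 0.65 (SE 0.11, adjusted p of 3.70e-05, 9.76e-04 and 1.25e-06). SEMA3D, another secreted member, was lower in acrylamide IC5 (-1.27), chlorpyrifos IC5 (-1.07), fluoxetine IC5 (-0.75) and methyl mercury IC5 (-0.83), and its counts were low: 34.1, 41.2 and 49.9 in chlorpyrifos IC5, against 66.7, 83.8 and 125 in controls. In methyl mercury IC20/100 (-0.61, adjusted p = 0.0189) SEMA3D was not called without replicate 8 of that group (-0.42, adjusted p = 0.108). SEMA3F and SEMA5A were lower with methyl mercury: SEMA3F had 213, 247 and 321 at IC5, against 315, 413 and 545 in controls (-0.66), and SEMA5A had 366, 427 and 801, against 612, 694 and 955 (-0.71). SEMA5B had 5691, 6065 and 6375 in acrylamide IC5, against 4430.1, 4553 and 4788 in controls, all above (0.41 ± 0.04, adjusted p = 1.27e-15). SEMA6D rose in valproic acid IC5 without overlap (1144, 1194 and 1281, against 853, 901 and 1046; 0.38).

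PLXNA2 was lowest with fluoxetine. It had 6285, 8271 and 9874 normalized counts in fluoxetine IC5, against 11587, 13146 and 14478 in controls, with no overlap (log2 fold change -0.63 ± 0.07, adjusted p = 6.41e-11), and was not called in acrylamide IC20/100 (-0.13, adjusted p = 0.794). PLXND1 had 102, 151 and 209 in acrylamide IC5, against 207, 319 and 431 in controls (-1.0 ± 0.24, adjusted p = 3.51e-04), and it was lower in chlorpyrifos IC5 (-0.87) and chlorpyrifos IC20/100 (-1.20) with overlapping groups. PLXNB3 and PLXNA4 rose in acrylamide IC5. PLXNB3 had 114, 188 and 276 there, against 43.3, 103 and 142 in controls (1.15 ± 0.28, adjusted p = 3.93e-04), and shares 20.44% of its exon bases with SRPK3. PLXNA4 had 1314, 1414 and 2004, against 841, 904 and 1389.8 in controls (0.61, adjusted p = 3.89e-05). PLXNB2 was lower in methyl mercury IC20/100, with 1575, 2801 and 5098 against 3452, 4591 and 8061 (-0.86, adjusted p = 0.00165), but not with only these groups in the fit (-0.82, adjusted p = 0.167). NRP2 was lower in acrylamide IC5 (-0.44) and methyl mercury IC5 (-0.49), both with overlap.

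The ephrins moved apart in acrylamide IC5. EFNB2 had 1310.1, 1353 and 1455 normalized counts there and 980.4, 1080.0 and 1122 in chlorpyrifos IC5, against 762, 779 and 842 in controls. Both groups lay above every control (log2 fold changes 0.77 ± 0.04, adjusted p = 2.81e-27, and 0.43 ± 0.04, adjusted p = 3.87e-14), and both lay below every NPC library (6912 to 7415). EFNA4 had 153, 175 and 204 in acrylamide IC5, against 91.6, 98.3 and 133 in controls (0.78), while EFNA1 had 46.0, 56.3 and 65.5, against 81.9, 101 and 126 (-0.76). Neither overlapped with controls. EFNB1 was lower by 0.32 in fluoxetine IC5 (1826, 1889 and 2025, against 2242, 2374 and 2587 in controls; adjusted p = 1.82e-10).

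Of the Eph receptors, EPHA8 and EPHA2 changed most. EPHA8 had 34.8, 56.7 and 64.8 normalized counts in acrylamide IC5, 49.4, 71.8 and 84.8 in chlorpyrifos IC5, 66.4, 78.2 and 92.6 in fluoxetine IC5, and 44.3, 72.6 and 88.1 in methyl mercury IC5, against 133, 159.5 and 194 in controls. These 4 groups lay below every control library, at log2 fold changes of -1.54, -1.17, -0.97 and -1.17 (SE 0.12, adjusted p from 3.35e-18 to 3.01e-09). In valproic acid IC5 EPHA8 had 101, 148 and 186 and was not called (-0.12, adjusted p = 0.522), although at IC20/100 it was lower (-0.52, adjusted p = 0.00776). With only the valproic acid IC20/100 and control libraries in the fit, that call was lost (-0.54, adjusted p = 0.0828). EPHA2 was lowest with chlorpyrifos: it had 180.2, 221 and 261 at IC5 and 229.6, 249 and 289 at IC20/100, against 448, 631 and 804 in controls (-1.50 and -1.29, adjusted p of 1.50e-22 and 7.72e-19). EPHA5 had 428, 450.3 and 500.4 in acrylamide IC5, against 699, 748 and 847 (-0.73 ± 0.06, adjusted p = 8.46e-17), with no overlap. EPHA3 was lower in fluoxetine IC5 (-0.57) and methyl mercury IC5 (-0.48). EPHB4 rose in acrylamide IC5 (509, 594 and 696, against 283, 415 and 517; 0.56) and EPHB1 fell in fluoxetine IC5 (605, 689 and 729, against 761, 797 and 1026; -0.28).

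The concentrations of each compound were also compared with each other. Acrylamide differed most, with 17 members higher and 21 lower at IC5 than at IC20/100 (background 41.1%; 20% higher, 21.1% lower): UNC5B (-1.64), EPHA8 (-1.32), UNC5C (-1.06) and SEMA3D (-1.06) were lower and PLXNB3 (1.08) higher. For chlorpyrifos 1 member was called (background 0.0497%; 0.0397% higher, 0.00993% lower), EFNB2, with 980.4, 1080.0 and 1122 at IC5 and 882, 948 and 1008 at IC20/100 (0.19, adjusted p = 0.029), a call lost without the term for sequencing run (adjusted p = 0.123). Fluoxetine had 2 higher and 5 lower (background 3.76%; 2.3% higher, 1.46% lower). EPHA2 was higher at IC5 (313, 395 and 469.8, against 231, 273 and 351 at IC20/100; 0.50, adjusted p = 1.36e-04) and UNC5A lower (15.0, 31.0 and 34.6, against 27.7, 42.3 and 48.9; -0.48, adjusted p = 0.014, and 0.052 with DESeq2).

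UNC5B was higher at IC5 than at IC20/100 of methyl mercury and lower at IC5 than at IC20/100 of valproic acid. Methyl mercury had 3 higher and 4 lower at IC5 (background 5.17%; 2.58% higher, 2.6% lower): UNC5B was higher at IC5 than at IC20/100 (246, 363 and 450.1, against 145, 183 and 258; 0.86 ± 0.12, adjusted p = 5.64e-07, and 0.0846 with only these groups in the fit) and ROBO3 lower in every library (-0.66 ± 0.05, adjusted p = 1.29e-15). SLIT3 (0.44) and EPHB3 (-0.26) were not called without methyl mercury IC20/100 replicate 8. Valproic acid had 12 higher and 7 lower (background 17%; 9.73% higher, 7.27% lower). NTNG2 had 349.8, 397 and 480.3 at IC5 and 145, 185 and 263 at IC20/100 (1.1 ± 0.14, adjusted p = 8.30e-10), with no overlap. UNC5B was lower at IC5 (167, 208 and 231, against 206, 417 and 463; -0.84), and SEMA3A (0.57) and UNC5C (0.61) were higher.

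At IC20/100 the 3 compounds in DMSO were set against the 2 in medium, a comparison in which vehicle and compound cannot be told apart. Of 69 members 3 were higher and 25 lower with the DMSO compounds (40.6%), against 17.7% of all genes (8.62% higher, 9.05% lower). UNC5B had 145, 182 and 267 in the 24 DMSO libraries and 206, 469 and 786 in the 16 medium libraries (log2 fold change -1.30 ± 0.08, adjusted p = 6.96e-24), and EPHA2 229.6, 262 and 351 against 338, 538 and 677 (-0.97 ± 0.06, adjusted p = 4.87e-23). Both overlapped, UNC5B through its lowest medium libraries. PLXND1 (-0.71), SLIT3 (-0.69) and EPHA8 (-0.66) followed. The mesenchymal markers, 4 of 6 of which were lower with the DMSO compounds, had a median log2 fold change of -0.55. Of 7 progenitor markers 1 was higher and 5 lower with the DMSO compounds, with a median log2 fold change of -0.17. The part of these markers was not tested.

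At IC5, 10 pairs of compounds gave 274 member calls in all, and p-values of the members named stayed under 0.05 when adjusted over the 10 pairs (the highest was 0.0154). NTNG2 was highest with valproic acid. It had 84.8, 104 and 128 in methyl mercury IC5, against 349.8, 397 and 480.3 in valproic acid IC5 (log2 fold change -1.92 ± 0.14, adjusted p = 2.39e-20). It was also lower with fluoxetine (-1.88) and chlorpyrifos (-1.42) than with valproic acid. In acrylamide IC5, a compound in medium, NTNG2 had 185, 216 and 249, also below every valproic acid library. SLIT3 was lower with chlorpyrifos than with valproic acid (179, 213 and 259.7, against 318, 448 and 630.4; -1.10), as with fluoxetine (-1.01) and methyl mercury (-0.97). In acrylamide IC5 SLIT3 had 181, 230 and 413, which overlapped with valproic acid. Over all genes the shares called were 25.7% for methyl mercury against valproic acid, 22.7% for fluoxetine against valproic acid and 20.4% for chlorpyrifos against valproic acid, and the members called in these pairs numbered 33, 28 and 21.

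Acrylamide differed in PLXNB3 from each of the other compounds. PLXNB3 had 114, 188 and 276 with acrylamide and 37.7, 69.6 and 93.8 with valproic acid (log2 fold change 1.61 ± 0.28, adjusted p = 1.55e-06), and was higher with acrylamide than with methyl mercury (1.38), chlorpyrifos (1.2) and fluoxetine (1.1). UNC5C was lower with acrylamide than with valproic acid (27.3, 40.6 and 62.3, against 96, 106 and 146; -1.38) and methyl mercury (-1.08). EPHA8 was lower with acrylamide than with valproic acid (-1.42 ± 0.12, adjusted p = 1.59e-16). EPHA5 had 428, 450.3 and 500.4 with acrylamide and 683, 708 and 721 with chlorpyrifos (-0.63, adjusted p = 1.05e-13). NTN4 was lower with acrylamide than with fluoxetine (-1.26, adjusted p = 0.00574). Members called numbered 45 against valproic acid (background 37.6%), 41 against fluoxetine (35.5%), 34 against methyl mercury (36.8%) and 25 against chlorpyrifos (27.6%).

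Among the 3 compounds in DMSO, which share a vehicle, differences were fewer. Chlorpyrifos and fluoxetine differed in 14 members (background 6.82%): EPHA2 had 180.2, 221 and 261 with chlorpyrifos and 313, 395 and 469.8 with fluoxetine (log2 fold change -0.84 ± 0.10, adjusted p = 2.07e-10), and UNC5A was higher with chlorpyrifos (0.58), though not with only these groups in the fit (adjusted p = 0.109). Chlorpyrifos and methyl mercury differed in 16 (background 11.2%): UNC5B was lower with chlorpyrifos (149.8, 164 and 214, against 246, 363 and 450.1; -1.06) and ROBO3 higher (4351, 5158 and 5507, against 2814, 3187 and 3541; 0.67, adjusted p = 4.29e-17). Fluoxetine and methyl mercury differed in 17 (background 8.29%): UNC5A (15.0, 31.0 and 34.6, against 35.7, 46.4 and 56.1; -0.71) and UNC5B (-0.72) were lower with fluoxetine, and UNC5D higher (221, 246 and 266, against 146, 155 and 179; 0.61), all without overlap.

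The members differed in how much replicate libraries varied. The median SD of log2 values within day 10 groups was 0.228 over the 69 members and 0.254 over all genes tested, at a median normalized count of 529 for members and 268 for genes. NTN1 had the lowest SD (0.0659, with 0.0351 expected from counting error alone). SEMA4D had the highest, 1.15 against 0.0914 expected: in 26 of the 96 libraries it exceeded 400 normalized counts, with none between 357 and 472, and up to 2319. These libraries came from every group (1 to 4 of 8 each) and from every sequencing run (1 to 6 of 16). DCC (SD 0.543), NTN4 (0.746), PLXNB2 (0.425) and PLXNA3 (0.421) also varied by far more than counting error, and differences in these genes had to be larger to be called.

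**Figure D5:**
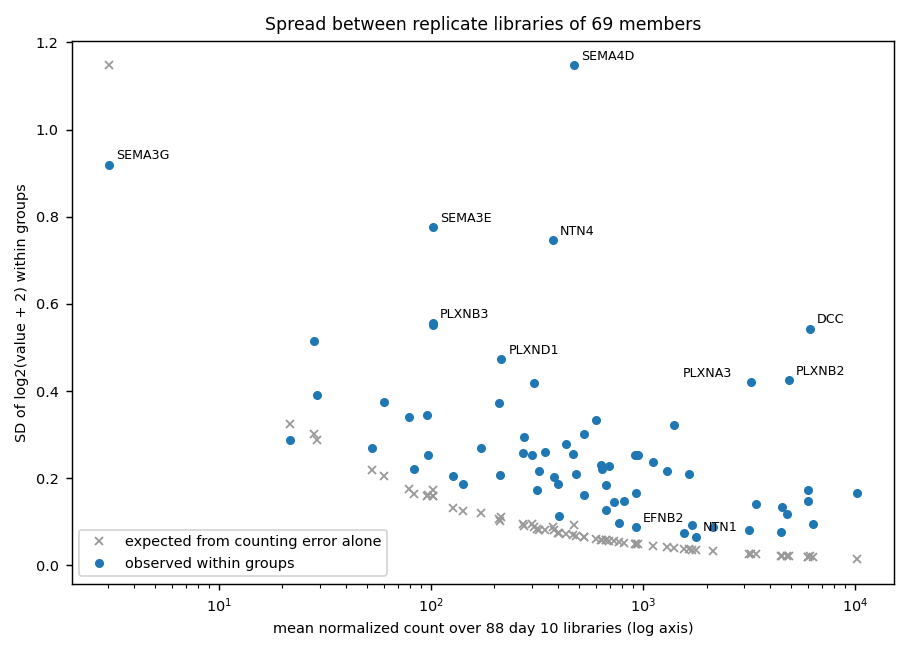
SD of log2(value + 2) within groups (circles) against mean normalized count over the 88 day 10 libraries (log axis) for 69 members, with the SD expected from counting error alone as crosses. SEMA4D lies at 1.15, and NTN1 at 0.0659 is the lowest.

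Other genes of the pathway were read as 2 lists, neither of which holds a member. Among 18 co-receptors and other ligands, 10 were higher and 4 lower in control co-cultures than in NPC (backgrounds 33.9% and 36.8%), led by CHL1, an adhesion molecule that partners neuropilins (mean 2245 normalized counts in controls and 149 in NPC, log2 fold change 3.95), FLRT1 (2.32) and DRAXIN, a ligand of DCC (2.02). Acrylamide IC5 lowered 9 and raised 2 (backgrounds 21.5% and 20.5%), with CNTN2, a contactin on commissural axons, at a mean of 446 against 1277 in controls (-1.51 ± 0.10). FLRT1, of a family of transmembrane proteins that bind UNC5 receptors, was called lower than control in acrylamide IC5 (-1.07), chlorpyrifos IC5 (-0.50), fluoxetine IC5 (-0.46), methyl mercury IC5 (-0.47) and valproic acid IC5 (-0.44). Methyl mercury IC5 lowered 5 and raised 0 (backgrounds 6.06% and 4.85%), and valproic acid IC5 raised 4 and lowered 5 (backgrounds 14.5% and 12.4%). Chlorpyrifos IC5 raised 3 and lowered 4 (backgrounds 9.92% and 9.75%), and fluoxetine IC5 raised 1 and lowered 4 (backgrounds 5.47% and 5.94%). Median log2 fold changes of the list were 0.57 for control against NPC, -0.24 for acrylamide IC5, -0.02 for chlorpyrifos IC5, -0.04 for fluoxetine IC5, -0.13 for methyl mercury IC5 and 0.03 for valproic acid IC5.

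Of 45 genes of growth cone signalling tested, 10 were higher and 27 lower in control co-cultures than in NPC (median -0.30 over the list and -0.01 over all genes), against backgrounds of 33.9% higher and 36.8% lower, with ABLIM3, an actin-binding protein, higher (mean 629 in controls and 66.6 in NPC, log2 fold change 3.22) and SRGAP2, a partner of ROBO1, lower (-1.0). Acrylamide IC5 raised 16 and lowered 9 (backgrounds 20.5% and 21.5%), and valproic acid IC5 raised 10 and lowered 5 (backgrounds 14.5% and 12.4%). Chlorpyrifos IC5 raised 7 and lowered 4 (backgrounds 9.92% and 9.75%), and fluoxetine IC5 raised 4 and lowered 1 (backgrounds 5.47% and 5.94%). Methyl mercury IC5 raised 0 and lowered 8 (backgrounds 4.85% and 6.06%), GAP43 among them (-0.26). SRGAP3 was lower in chlorpyrifos IC5 (-0.27) and fluoxetine IC5 (-0.22), and the kinase CDK5 higher in chlorpyrifos IC5 (0.39), fluoxetine IC5 (0.30) and valproic acid IC5 (0.41).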

How the data were processed

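RNA of 96 libraries, in 12 groups of 8, was measured with a stranded poly(A) kit in 6 sequencing runs of 16 libraries, each run holding 1 or 2 libraries of every group. The deposited values are a normalized signal, gene counts divided by 1 size factor per library. Per the submitters' processing notes, the authors used Salmon 1.3.0, DESeq2 1.30.0, FastQC 0.11.8, MultiQC 1.0 and GRCh38; the sources used here do not give the annotation release or the use of strand in counting. Whole reads were recovered for 100% of values in every column (tolerance 0.001), 9487158 to 29626655 per library, which sets the counting precision. No pair of the 336 pairs of libraries within groups agreed within counting error.

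limma 3.58.1 (R 4.3.3) was fitted to log2(value + 2) with a trended prior, group and sequencing run, over genes at 10 or more in at least 8 libraries of the fit: 18063 genes in 16 libraries for control against NPC, and 20136 genes in 88 day 10 libraries for the rest. Fold changes are on that scale and understate those of low genes. Each p was adjusted over all genes of its fit (threshold 0.05). Levels per kilobase use GENCODE exon lengths. The script was tested on simulated data. Alternatives were other pseudocounts, no low-value filter, TMM scaling, no run term, a replicate block, edgeR 4.0.16 and DESeq2 1.42.0 on the recovered reads, libraries left out, and fits of only the groups compared. Between control and NPC the replicate block took the place of the run term.

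The members and lists were chosen with earlier results of these data known. Genes were named by rule: between control and NPC, called members with an absolute log2 fold change of at least 1 and the highest member of each family; in each exposure, up to 10 called members; in the other comparisons, up to 5; of the pathway lists, up to 4. Other members named with a value were chosen after their values were seen. Replicate numbers come from the labels, and same-numbered libraries were not treated as pairs. Those of controls share sequencing runs with those of fluoxetine IC20/100, chlorpyrifos IC5 and valproic acid IC5. Before run was removed their median correlations were 0.055, 0.060 and 0.056, against -0.003, -0.004 and -0.004 for other numbers. With run removed they were -0.074, -0.060 and -0.070. The summed level of the oligodendrocyte markers is not reported here.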

Additional observations from a re-analysis of the deposited data

Results flagged for a closer look

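The libraries of each group were checked for 1 standing apart (a gap to the nearest library above Dixon's critical value) in 12 members, 144 groups in all. There were 10, and chance gives about 1 in 20, here 7.2. The highest SLIT3 in NPC was 76.7 in replicate 2 (others 21.2 to 42.0), the highest in acrylamide IC5 was 412.5 in replicate 7 (others 181 to 266), and the lowest in methyl mercury IC5 was 139 in replicate 3 (others 216 to 277). EFNB2 was highest at 1455 in acrylamide IC5 replicate 8 (others 1310.1 to 1374) and at 898 in methyl mercury IC5 replicate 4 (others 744 to 798). UNC5B was highest at 267 in fluoxetine IC20/100 replicate 3 (others 164 to 189.5) and lowest at 163 in fluoxetine IC5 replicate 5 (others 208 to 232). NTNG1 was highest at 386 in fluoxetine IC5 replicate 6 (others 253 to 314). In methyl mercury IC20/100 replicate 8, EPHA5 was 349 (others 617 to 730.0) and EPHA4 was 2138 (others 3090 to 3873).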

How the results depend on the processing

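Of 307 named values, 236 kept their call and direction under every alternative run, and 71 changed under at least 1. Calls lost numbered 48 with only the groups compared in the fit and 27 with no low-value filter. Leaving out 1 control library, shared by all exposures, lost from 6 calls (replicate 7) to 21 (replicate 2). Of 5842 alternative values, 236 lost the call, 0 gained it and 14 turned sign, all of DCC between control and NPC, which is not called: 0.0285 with TMM scaling, 0.0225 without the run term, 0.0225 with the replicate block, 0.045 with edgeR and 0.0357 with DESeq2. With 1 library left out it ranged from -0.226 to 0.209. With only the groups compared in the fit, members called fell to 8 for methyl mercury IC20/100 (27 with all day 10 groups) and to 1 for valproic acid IC20/100 (4), and between IC5 and IC20/100 to 0 for chlorpyrifos (1), 4 for fluoxetine (7) and 1 for methyl mercury (7); these fits hold fewer samples. Chlorpyrifos IC5 against IC20/100 also had 0 without the run term, and the cause was not tested. The replicate block gave 54 members called between control and NPC, where it replaced the run term (56 with the run term and no block). It gave 41 for acrylamide IC5 (40 without it) and 6 for valproic acid IC20/100 (4). The numbers were not taken to pair the libraries: in no comparison did every pair correlate above 0.1, and the highest median was 0.125 (control and NPC, run removed), against 0.082 for other numbers. Low counts limit UNC5A, UNC5C, EPHA6 and SEMA3D.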
